A study of Homo sapiens with 8 samples.

Results

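The miRNAs described here are those with recent names: mature human miRNAs whose number is 1000 or higher and whose raw counts summed to at least 80 over all 8 libraries. Of the 2575 mature miRNA names counted in the series, 1644 carry a number of 1000 or higher. In this class 799 names had a count of 0 in every library, 1546 summed to under 80, and 98 reached 80. Names of 9 numbers (miR-1246, miR-1248, miR-1292, miR-1303, miR-3687, miR-3909, miR-4521, miR-6087 and miR-7641) were left out, which removed 8 of the 98 and left 90. That choice was made with earlier results of these data known: 7 of the 8 removed names passed the test used below, so counts over the 90 say nothing about the class before the removal. The summed count was the stated measure of choice, and the removal of the 9 numbers also drew on the group comparison.

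The libraries hold small RNA from HCT116, an established human colorectal cancer cell line (passage 16 to 19). For 4 libraries, ETBF was added for 6 hours at a multiplicity of infection (bacteria per cell) of 500. ETBF is enterotoxigenic Bacteroides fragilis, a colon anaerobe named for its secreted protease toxin. The 4 control libraries, titled untreated, came from cells given the medium of the bacteria without ETBF. No label calls the replicates separate cultures. The p-values therefore measure only how these samples spread, possibly a technical spread.

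MiRNAs are short RNAs cut from hairpin precursors by Drosha and Dicer. A mature miRNA from the 5' side of the hairpin is the 5p arm, and its partner is the 3p arm. The bases near the 5' end, called the seed, pair with target messenger RNAs. Numbers are given in order of registration, so the high numbers hold many miRNAs found by deep sequencing, often of low abundance. Many lie in introns of protein-coding genes, and some have several identical hairpin genes.

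Library totals ran from 2591655 to 4706156 counts with ETBF and from 5243400 to 6522542 counts in controls, so every ETBF library was shallower than every control. All 6 colon epithelial miRNAs checked, miR-200c-3p among them, were above 100 CPM (counts scaled to the TMM-normalised library total). Of 12 miRNAs known from other cell types, 4 were above 100 CPM, led by miR-9-5p, best known from neurons, at 8572 CPM, while the neuronal miR-124-3p was at 0. The blood miRNA miR-451a was higher with ETBF, at means of 29.4 CPM with it and 7.24 CPM without. The endothelial miR-126-3p was lower (log2 fold change -0.43). Of the colon epithelial miRNAs, miR-200c-3p (-0.32) and miR-192-5p (-0.30) were lower and miR-31-5p (0.34) was higher. These passed the edgeR test used below, and no other marker did, the blood miRNAs miR-142-3p and miR-486-5p included. The part of these differences in the results below was not tested. The summed CPM of the 12 ran from 8889 to 11059 with ETBF and from 9598 to 11686 in controls. CPM values are shares of the miRNA counted in a library, so fewer cells and less RNA per cell cannot be told apart.

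The mature sequences of the miRNAs on which the results turn are shown first, because their seeds show which of them could share targets. RefSeq (GRCh38.p14) held a mature sequence for 75 of the 90 names. The 75 had 74 distinct seeds. Capitals mark the seed, bases 2 to 8. The first 3 rose with ETBF and the next 6 fell:
miR-7974: aGGCUGUGaugcucuccugagccc
miR-1257: aGUGAAUGauggguucugacc
miR-4425: uGUUGGGAuucagcaggaccau
miR-2116-3p: cCUCCCAUgccaagaacuccc
miR-4787-3p: gAUGCGCCgcccacugccccgcgc
miR-3158-3p: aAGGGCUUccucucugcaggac
miR-2277-5p: aGCGCGGGcugagcgcugccaguc
miR-1301-3p: uUGCAGCUgccugggagugacuuc
miR-1180-3p: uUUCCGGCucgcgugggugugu
No seed in these 9 was shared. The pair of members with a common seed was miR-6511a-3p and miR-6511b-3p, described below. A member that shared its seed with an older miRNA was miR-1908-5p, with miR-663a, both holding the seed GGCGGGG.

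The 90 miRNAs together took a small part of each library: 0.277%, 0.292%, 0.306% and 0.312% of the counts in ETBF replicates 1 to 4, and 0.288%, 0.311%, 0.328% and 0.304% in control replicates 1 to 4. The ETBF and control values overlapped, with means of 0.297% ± 0.0153 and 0.308% ± 0.0165 (SD, n = 4 each). One miRNA, miR-1307-3p, held 0.108% ± 0.00678 and 0.111% ± 0.0174 of the counts. Of the 90, 41 summed to under 160 counts and 16 to 1000 or more. At the boundary of the choice, miR-3157-3p with a summed count of 80 and miR-1226-3p with 81 were just inside, and miR-4527 and miR-4796-3p with 79 each were just outside.

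Few of these miRNAs differed between the groups beyond the replicate spread. The largest rises with ETBF were those of miR-1257, miR-7974, miR-4425 and miR-1296-5p, and the falls were led by miR-2116-3p and miR-4787-3p, with smaller falls of miR-3158-3p, miR-2277-5p, miR-1301-3p and miR-1180-3p. Of the 90, 86 had enough counts to be tested. With edgeR's quasi-likelihood test 4 of the 86 rose, 6 fell and 76 did not pass, at p-values adjusted over all 480 miRNA names tested and a threshold of 0.05. Over all 480 names 34.4% were called, 19.8% higher and 14.6% lower. The median log2 fold change (ETBF over control) was -0.14 over the 86 and 0.01 over all 480, and 54 of the 86 values lay below 0. The members were chosen by raw summed count, and every control library was deeper than every ETBF library. Of the 90, 12 had ETBF counts that summed to under 40, and 3 had control counts that did. How far this choice set the lean below 0 was not tested, so the lean is not a result about these miRNAs. An unadjusted p under 0.05 was found for 19 of the 86, the 10 called ones included. DESeq2 called 10 of the 86 and limma-voom 11.

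Abundance differed as well. The median level was 5.29 CPM over the 86 and 20.3 CPM over all 480 names, and the median standard error (SE) of the log2 fold change was 0.25 against 0.14. Under a mean of 10 CPM, 4 of 61 were called, where 15.1% of all tested names at that level were. Between 10 and 100 CPM, 3 of 20 were called, against 40.3%. Above 100 CPM, 3 of 5 were called, against 53.1%. At each of the 3 levels the share called was read without a test of the difference. A count of 0 allows up to 3 counts, or 0.447 to 1.12 CPM by library, for counting error only.

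**Figure D1:**
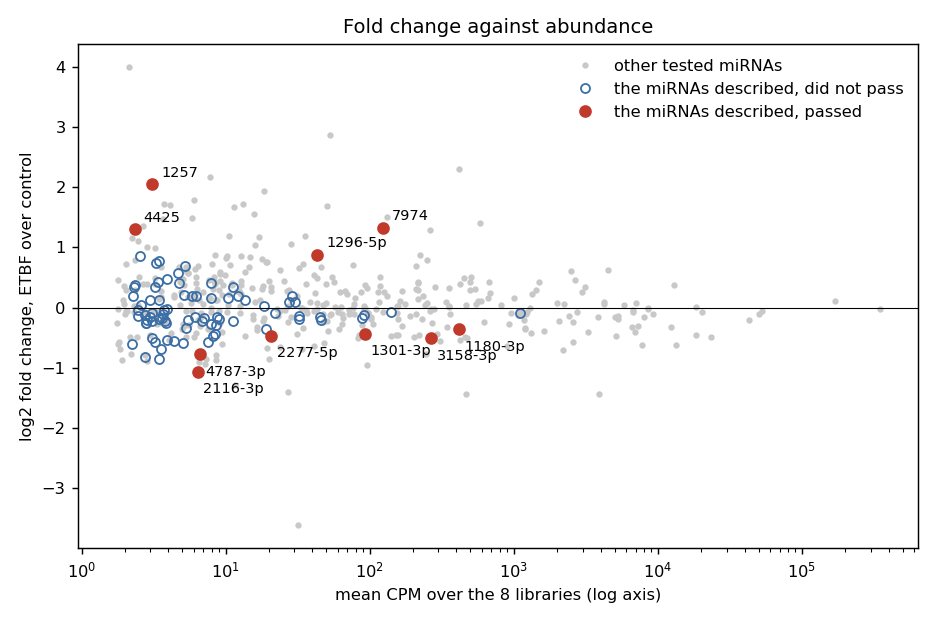
Log2 fold change (ETBF over control) against mean CPM over the 8 libraries (log axis) for the 480 miRNAs tested, with the 86 described here as circles and the 10 that passed as filled red circles with their numbers. Most of the 86 sit at the low end of the axis, around the median of 5.29 CPM, and the 4 rises stand higher above 0 than most falls stand below it.

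MiR-7974 was the clearest rise. Its levels were 159, 163, 193.9 and 189 CPM in ETBF replicates 1 to 4 and 74.97, 74.3, 65.8 and 65.3 CPM in control replicates 1 to 4. Every ETBF library was above every control, and the spread within each group was small beside the gap. The means were 176 ± 17.7 and 70.1 ± 5.26 CPM (SD, n = 4 each), 2.51-fold higher with ETBF, with a log2 fold change of 1.33 (SE 0.10, edgeR adjusted p = 3.25e-08). The mature sequence lies on the minus strand at chr19:11495544-11495567 (GRCh38.p14), in an intron of ZNF653, a zinc finger gene, and of the overlapping AC008481.3, on the same strand. It takes the 3' end of its hairpin, bases 56 to 79 of 79, as the capitals show:
miR-7974 hairpin: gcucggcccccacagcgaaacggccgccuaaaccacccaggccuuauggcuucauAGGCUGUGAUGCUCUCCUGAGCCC

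MiR-1296-5p rose as well. Its hairpin lies at chr10:63372957-63373048 (GRCh38.p14, minus strand) in an intron of JMJD1C, a jumonji-domain gene. The levels were 67.0, 59.0, 49.6 and 49.0 CPM with ETBF and 27.4, 32.9, 32.9 and 29.2 CPM in controls, without overlap. The mean went from 30.6 ± 2.74 to 56.2 ± 8.58 CPM (SD, n = 4 each). By edgeR's estimate the rise was 1.84-fold, a log2 fold change of 0.88 (SE 0.12, edgeR adjusted p = 3.25e-05). The other arm, miR-1296-3p, summed to 35 counts and was not tested.

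The other rises were of rare miRNAs, miR-1257 and miR-4425. MiR-1257 had 25, 25, 15 and 13 counts with ETBF and 6, 13, 0 and 8 in controls, 4.99 ± 0.864 against 1.17 ± 0.935 CPM (SD, n = 4 each). Its log2 fold change was 2.06 (SE 0.45, edgeR adjusted p = 0.00181). Control replicate 3 had no count of it, where the limit of 3 counts is 0.57 CPM. MiR-4425 had 20, 11, 15 and 7 counts with ETBF and 3, 10, 7 and 11 in controls, which is 3.34 ± 0.870 against 1.33 ± 0.523 CPM (log2 fold change 1.31, SE 0.36, edgeR adjusted p = 0.0101). After scaling to the library size neither pair of groups overlapped. Both reached a sum of 80 mainly through the ETBF libraries: the 4 controls summed to 27 counts for miR-1257 and 31 for miR-4425. A miRNA as rare that was high in neither group would not be among the 90, so these rises are part of how the set was chosen. Both lie outside the genes of GENCODE 29, miR-1257 at chr20:61953621-61953641 (minus strand) and miR-4425 at chr1:25023552-25023573 (plus strand).

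MiR-2116-3p fell the most. Its levels were 2.58, 3.76, 5.91 and 4.49 CPM with ETBF and 10.3, 8.10, 7.22 and 8.80 CPM in controls. All ETBF libraries lay below all controls, with ETBF replicate 1 the lowest. The mean of 4.18 ± 1.39 CPM with ETBF was 2.09-fold below the control mean of 8.62 ± 1.32 CPM (SD, n = 4 each; log2 fold change -1.06, SE 0.24, edgeR adjusted p = 0.00243). MiR-2116-3p lies in an intron of MYO1E, a class I myosin gene, at chr15:59171192-59171212 (minus strand).

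MiR-4787-3p and miR-2277-5p, the most GC-rich of the 9 called miRNAs with a sequence, at 83.3% and 75% GC, fell without overlap between groups. MiR-4787-3p was at 6.02, 4.93, 4.11 and 4.49 CPM with ETBF against 7.56, 9.16, 7.22 and 9.69 in controls (log2 fold change -0.77, SE 0.20, edgeR adjusted p = 0.00741). MiR-2277-5p, in an exon of FAM172A at chr5:93620748-93620771 (minus strand), was at 19.1, 14.8, 16.2 and 19.5 CPM with ETBF against 26.4, 27.1, 22.8 and 19.5 in controls (log2 fold change -0.47, SE 0.14, edgeR adjusted p = 0.0166). The highest ETBF library and the lowest control of miR-2277-5p differed little, at 19.46 and 19.54 CPM. Both calls were lost when the trend of fold change over GC content was removed, with miR-4787-3p at -0.28 (edgeR adjusted p = 0.307, against 0.00331 to 0.307 over its alternatives) and miR-2277-5p at -0.16 (edgeR adjusted p = 0.412, against 0.00520 to 0.412). Without control replicate 2 miR-2277-5p was at -0.41 (edgeR adjusted p = 0.0509).

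MiR-1180-3p and miR-1301-3p fell by small and even steps. MiR-1180-3p, from an intron of the cilium gene B9D1 (chr17:19344513-19344534, minus strand), is the second most abundant of the 90. It was at 369, 355, 372 and 355 CPM with ETBF against 487, 446, 481 and 454 in controls. MiR-1301-3p lies in an intron of DNMT3A, a DNA methyltransferase gene (chr2:25328651-25328674, minus strand). It was at 85.7, 75.2, 76.3 and 79.3 CPM with ETBF against 107, 102, 114 and 105 in controls. In both, the ETBF libraries stood together below the controls. The means fell from 467 ± 19.9 to 363 ± 9.03 CPM for miR-1180-3p (SD, n = 4 each; 1.29-fold, log2 fold change of -0.36, SE 0.07, edgeR adjusted p = 0.000664). For miR-1301-3p they fell from 107 ± 5.12 to 79.1 ± 4.74 CPM (1.35-fold, log2 fold change of -0.43, SE 0.09, edgeR adjusted p = 0.00094).

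MiR-3158-3p was the called miRNA whose groups overlapped. It was at 168, 172, 283 and 260 CPM with ETBF against 367, 333, 292 and 258 in controls, so ETBF replicates 3 and 4 reached the level of control replicate 4. Its log2 fold change was -0.51 (SE 0.16, edgeR adjusted p = 0.0175). Without control replicate 1 the call was lost, at -0.42 (edgeR adjusted p = 0.0527, against 1.30e-07 to 0.0527 over its alternatives). The same mature sequence comes from hairpins on opposite strands of an intron of DPCD, at chr10:101601466-101601487 (plus) and chr10:101601427-101601448 (minus).

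**Figure D2:**
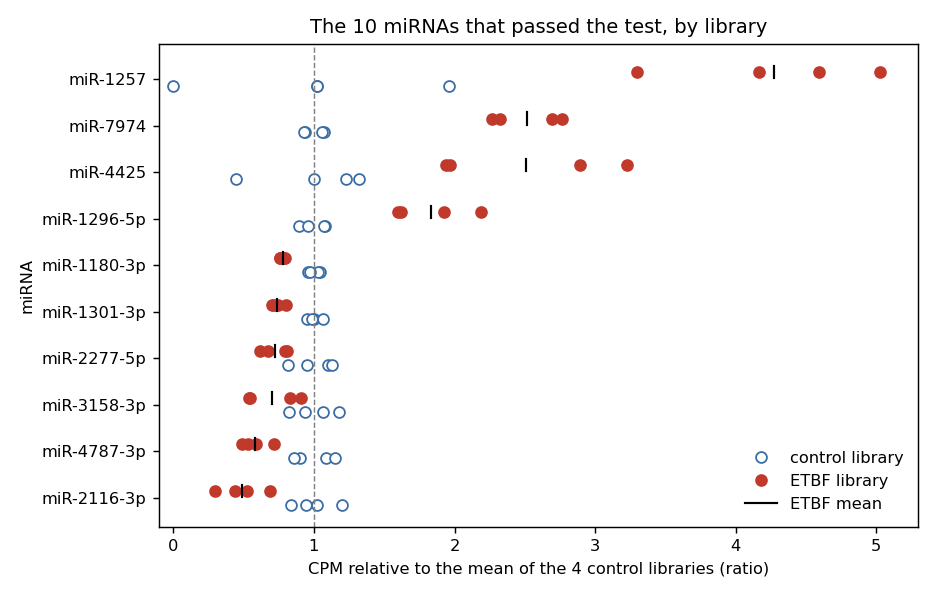
CPM of each library divided by the mean of the 4 control libraries (linear axis, ratio) for the 10 miRNAs that passed, with ETBF libraries as filled points, control libraries as open points and a bar at the ETBF mean. The groups overlap for miR-3158-3p, the nearest points of miR-2277-5p touch (19.46 and 19.54 CPM), and the other 8 rows show a gap, while the rows of miR-1257 and miR-4425, with few counts, are the widest.

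Groups that do not overlap were seen for 12 of the 86, 4 higher and 8 lower with ETBF, where 33.8% of all 480 names had none. Besides the called miRNAs these were miR-5010-3p (log2 fold change -0.85, SE 0.33, edgeR adjusted p = 0.0554), miR-2110 (-0.36, SE 0.14, edgeR adjusted p = 0.0578) and miR-3928-3p (-0.26, SE 0.24, edgeR adjusted p = 0.446), named after their values were seen. MiR-5010-3p passed in 6 of 18 alternatives and miR-2110 in 6 of 19.

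The most abundant of the 90 was miR-1307-3p, from an exon of the ATP synthase subunit gene ATP5MD (chr10:103394301-103394322, minus strand). Its levels were 998, 1047, 1094 and 1111 CPM with ETBF and 923, 1278, 1278 and 1062 CPM in controls. The ETBF values fell inside the control range, and the log2 fold change was -0.10 (SE 0.10, edgeR adjusted p = 0.482). The 5p arm of the same hairpin, miR-1307-5p, was at 83.6 ± 8.08 and 94.4 ± 9.66 CPM (SD, n = 4 each; -0.17, SE 0.10, edgeR adjusted p = 0.210). MiR-3615, within an exon of SLC9A3R1, which codes for a scaffold of epithelial membrane proteins, was at 137 ± 18.0 and 144 ± 13.3 CPM (-0.07, SE 0.10, edgeR adjusted p = 0.640). When the GC trend was removed the signs of all 3 turned, to 0.17, 0.06 and 0.17, and none passed.

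The GC content of the members was higher than that of the tested names as a whole, with a median of 58.7% over the 72 tested members with a sequence and 47.6% over all tested names with one. Of 32 tested members above 60% GC, 1 rose and 4 fell, and their median log2 fold change was -0.18. Over all 74 tested names above 60% GC, 6 rose and 17 fell, with a median of -0.14, and 31.1% were called. Of the 27 members between 40% and 60% GC, 2 rose and 2 fell (37.2% of all such names were called). Of the 13 members up to 40% GC none passed with edgeR, DESeq2 or limma-voom before the GC trend was removed, and 1 had an unadjusted p under 0.05 (29.2% of all such names were called). With the GC trend removed 5 members rose and 6 fell, and their median was -0.10, but these were not the same members. The falls of the GC-rich miR-4787-3p and miR-2277-5p were lost. The falls of miR-1252-5p (-0.44, edgeR adjusted p = 0.0162) and miR-3613-5p (-0.47, edgeR adjusted p = 0.000391), both at 22.7% GC, and the rise of miR-1247-3p (0.80, edgeR adjusted p = 0.0305), at 70.8% GC, were gained. These 3 were named after their values were seen. Members without a sequence, miR-1296-5p among them, were left unadjusted when the trend was removed. The part of base composition in these values was not tested further.

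Genomic position was described for 80 members. Of these, 49 lay in an intron and 15 in an exon of a gene on their own strand, and 16 in neither. Of the 47 tested in introns, 2 rose and 4 fell. Of the 15 in exons, 1 fell, and of the 15 tested in neither, 2 rose and 1 fell. Over all 480 names, 19.8% rose and 14.6% fell. The counts by position are small, and no difference between the positions was tested.

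Among miRNAs grouped by origin, 12 belonged to a list hosted by well-annotated genes, and 3 of the 11 tested were called, where 34.4% of all names were. MiR-1296-5p rose, miR-1301-3p and miR-1180-3p fell, 8 did not pass, and miR-1226-3p was not tested. That list includes miR-1306, whose hairpin overlaps DGCR8, the partner of Drosha, and miR-1908 in the fatty acid desaturase gene FADS1. The 8 members whose names are also used for mouse miRNAs had a median log2 fold change of -0.22. In the edgeR test used for the calls above none of the 8 passed, and none with DESeq2. An unadjusted p under 0.05 was found for 3 (miR-1249 and both arms of miR-1247), named after their values were seen. MiR-1249 (-0.57, SE 0.23, edgeR adjusted p = 0.0638) passed in 5 of 19 alternatives: with limma-voom, upper-quartile scaling and the stricter filter, and without ETBF replicate 1 or 4. MiR-1247-3p passed with the GC trend removed (0.80, edgeR adjusted p = 0.0305). MiR-1247-5p passed with upper-quartile scaling (-0.66, edgeR adjusted p = 0.0440) and without control replicate 1 (-0.70, edgeR adjusted p = 0.0354). The most abundant of them was miR-1224-5p at 10.3 ± 1.92 and 12.1 ± 0.471 CPM (SD, n = 4 each; -0.23, SE 0.16). It belongs to the mirtrons, miRNAs made from short spliced introns without Drosha. The other first-described mirtron, miR-1226-3p from DHX30, had too few counts to be tested, and of the 353 names between miR-6715 and miR-6895, a range that holds many mirtrons, 3 reached the summed count of 80. They included miR-6715b-3p (-0.21, SE 0.25) and miR-6842-3p (-0.25, SE 0.33). Being in that range does not make a miRNA a mirtron: miR-6715b lies on the strand opposite TECTB. Neither miR-1224-5p nor the 3 names in the range passed with edgeR, DESeq2 or limma-voom, or had an unadjusted p under 0.05.

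A pair of members is encoded opposite an older hairpin. MiR-3074-5p comes from the strand opposite miR-24-1 and was at 7.68 ± 0.886 CPM with ETBF against 9.53 ± 1.94 in controls (SD, n = 4 each; -0.29, SE 0.19, edgeR adjusted p = 0.269). Opposite it, miR-24-3p stood at 6504 ± 595 and 8084 ± 391 CPM, and fell by 0.31 on the log2 scale (SE 0.07, edgeR adjusted p = 0.00304). MiR-24-3p has 2 hairpins in RefSeq, so these values are not those of miR-24-1 alone. The arm specific to miR-24-1, miR-24-1-5p, was at 4.5997 ± 0.858 and 5.63 ± 1.74 CPM and did not pass (-0.30, SE 0.26, edgeR adjusted p = 0.412). The strand setting of the counting was not given in the sources used here, and whether reads of the abundant strand reach miR-3074-5p was not tested. MiR-3065-5p comes from the strand opposite miR-338 and was at 8.38 ± 2.20 and 9.69 ± 1.75 CPM (-0.19, SE 0.20, edgeR adjusted p = 0.502). There the older strand was the rarer, with 1 count of miR-338-3p and 31 counts of miR-338-5p over all libraries. Entries that resemble other RNA were 4 of the 90, and none of the 3 tested passed with edgeR, DESeq2 or limma-voom or had an unadjusted p under 0.05. MiR-1291, which overlaps the snoRNA SNORA2C, was at 6.60 ± 0.860 and 5.78 ± 0.331 CPM. MiR-3607-3p was at 2.36, 8.69, 12.1 and 2.62 CPM with ETBF against 1.99, 9.33, 2.28 and 2.54 in controls, so ETBF replicates 2 and 3 and control replicate 2 were high and the other libraries low. Its log2 fold change was 0.69 (SE 0.52, edgeR adjusted p = 0.343), and without control replicate 2 it was 1.49 (edgeR adjusted p = 0.0279).

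Counts that are whole multiples of one number marked 7 of the 90: miR-3116, miR-3179, miR-3688-3p and both arms of miR-6511a and miR-6511b. All 7 are among the 9 members with at least 2 hairpin genes in RefSeq, and 0 of the 66 members with 1 gene had a factor. In 5 of the 7 the factor equals the number of genes in that table. The others were miR-3179, with a factor of 3 and 4 genes, and miR-6511a-3p, with a factor of 4 and 3 genes. The counts of miR-3179 were 33, 36, 39 and 21 with ETBF against 30, 45, 39 and 57 in controls. The remaining members with 2 genes, miR-3130-5p and miR-3158-3p, had no common factor. For comparison, 2.60% of the names numbered below 1000 with counts in at least 4 libraries had such a factor. Among those, 7 of 39 with at least 2 genes had one, and 6 of 441 with 1 gene. Among all names numbered 1000 or higher with such counts, 26 of 32 and 2 of 378 did. How such counts arose was not tested. Dividing a miRNA by its factor leaves its ratio between groups as it is, but lowers the counts on which a p-value rests. Divided sums were 41 for miR-6511a-5p and for miR-6511b-5p, 56 for miR-3688-3p, 58 for miR-3116 and 66 for miR-6511a-3p, all under 80. They were 88 for miR-6511b-3p and 100 for miR-3179. With divided counts 81 of the 90 members were tested. The tests of the 7 that follow used the deposited counts. None of the 7 passed with edgeR, DESeq2 or limma-voom, and miR-3116 alone had an unadjusted p under 0.05 (log2 fold change 0.74, SE 0.30, edgeR adjusted p = 0.0685). It passed without ETBF replicate 1 (edgeR adjusted p = 0.0460) or control replicate 1 (edgeR adjusted p = 0.0330).

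The miR-6511 arms show how far identical copies can be told apart, so their sequences are set side by side. Capitals mark the run of 21 bases that the 5p arms share and, for the 3p arms, the seed:
miR-6511a-5p: CAGGCAGAAGUGGGGCUGACAgg
miR-6511b-5p: cugCAGGCAGAAGUGGGGCUGACA
miR-6511a-3p: cCUCACCAucccuucugccugc
miR-6511b-3p: cCUCACCAccccuucugccugca
Counted from the 5' end, the 3p arms differ by U9C (miR-6511a-3p first), and share the seed CUCACCA. The miR-6511a genes lie in introns of pseudogenes on chromosome 16, PKD1P1 among them, and the miR-6511b genes in introns of PKD1, the polycystin gene, and of its pseudogene PKD1P6. MiR-6511a-5p had 16, 12, 16 and 32 counts with ETBF and 12, 12, 32 and 32 in controls. MiR-6511b-5p had 8, 6, 8 and 16 and then 6, 6, 16 and 16, so the ratio was 2 in every library. Divided by their factors, both names give the same 41 counts over all libraries, 4, 3, 4 and 8 with ETBF and 3, 3, 8 and 8 in controls. The deposited counts thus do not separate the 5p arms, and their log2 fold changes of 0.40 (SE 0.43) and 0.38 (SE 0.48) are 1 measurement. The 3p arms, which differ by a base, had counts in ratios from 0.571 to 4. MiR-6511a-3p was at -0.22 (SE 0.30) and miR-6511b-3p at -0.56 (SE 0.31, edgeR adjusted p = 0.185), which passed without ETBF replicate 1 (-1.03, edgeR adjusted p = 0.0170).

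**Figure D3:**
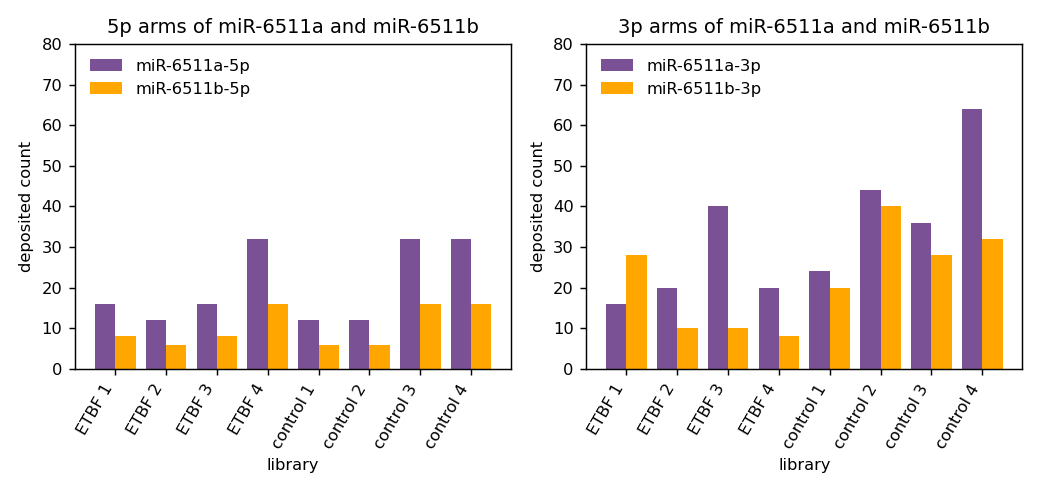
Deposited counts (bars from 0) of the 5p arms (left) and 3p arms (right) of miR-6511a and miR-6511b in each of the 8 libraries. On the left each miR-6511a bar is 2 times its neighbour in every library, and on the right the ratio runs from 0.571 to 4.

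The ratio of the arms within a hairpin does not depend on library scaling. Over the 118 hairpins with both arms tested, 32.2% changed their ratio (limma on log2 of the 5p over 3p counts, 0.5 added to each). Of the 8 hairpins with a member arm, 1 passed. In miR-1247, which lies in an exon of DIO3OS on chromosome 14, log2 of the ratio was -0.53, 0.08, -1.13 and 0.00 with ETBF and 0.07, 0.52, 0.50 and 1.58 in controls. The groups overlapped, and the change was -1.06 (SE 0.36, limma adjusted p = 0.0484). The call was lost on leaving out any 1 of 6 libraries (ETBF replicates 1, 3 and 4 and control replicates 2, 3 and 4), with limma adjusted p from 0.0576 to 0.106. Its arms were at -0.58 (miR-1247-5p, SE 0.24, edgeR adjusted p = 0.0726) and 0.58 (miR-1247-3p, SE 0.27, edgeR adjusted p = 0.110). MiR-5001 had a ratio change of -0.80 (SE 0.28, limma adjusted p = 0.0522), which passed with the replicate block (limma adjusted p = 0.0224) and without ETBF replicate 1 (limma adjusted p = 0.0454) or control replicate 2 (limma adjusted p = 0.0127). MiR-1277, at 0.37 (SE 0.21, limma adjusted p = 0.209), passed without ETBF replicate 3 (limma adjusted p = 0.0466). The change for miR-1307 was -0.09 (SE 0.19, limma adjusted p = 0.738).

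The calls held under most of the processing alternatives. With upper-quartile scaling 4 of the 86 rose and 10 fell, while over all names 71 rose and 89 fell, against 95 and 70 with TMM. Without ETBF replicate 1 the members that rose were 5 and those that fell 11. After thinning to equal depth, where 58 members were left to test, 2 rose and 6 fell, and miR-1257 and miR-4425 were no longer testable.

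**Figure D4:**
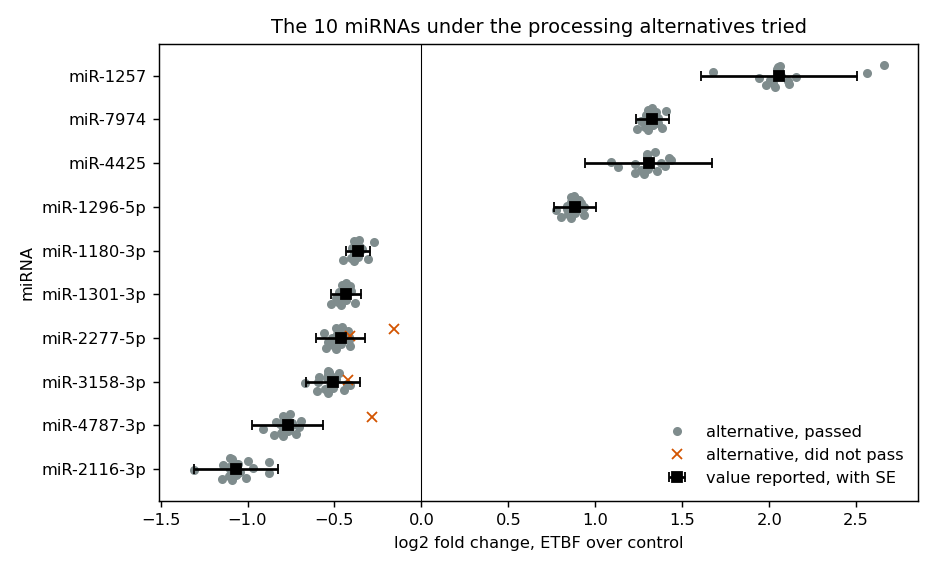
Log2 fold change (ETBF over control) of the 10 miRNAs that passed, as reported (black squares with SE) and under each alternative that could test them (grey points where the call was kept, orange crosses where it was lost). Every value keeps its sign, and the 4 crosses belong to miR-2277-5p, miR-3158-3p and miR-4787-3p. MiR-1296-5p, without a sequence, was left unadjusted when the GC trend was removed.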

How the data were processed

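Raw read counts per mature miRNA name were deposited by the authors, 1 table per library and 8 in all. Per the submitters' processing notes, Trimmomatic, FastQC and featureCounts were used with GRCh37.p5. The aligner, tool versions, miRNA annotation and strand: this was not given in the sources used here. The members and lists were chosen with earlier results of these data known.

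Libraries were grouped by title (4 ETBF, 4 controls) and compared by edgeR 4.0.16 (R 4.3.3), quasi-likelihood F test, with the deposited counts as input: TMM normalisation, default expression filter (minimum count 10), two-sided, Benjamini-Hochberg adjustment over the 480 names kept. SE is approximate: log2 fold change over the root of F. Arm ratios were tested with limma 3.58.1. Scripts were tested on simulated data. DESeq2 1.42.0, limma-voom, other scalings and filters, thinning to 2591655 counts, removal of the GC trend, the replicate number as a block and leaving out each library were alternatives. Named miRNAs are the called members, the 5 most abundant, their other arms, those with a common factor, those nearest to a sum of 80 and the 2 most abundant of each list. Of the 5 names of the chromosome 14 imprinted cluster list, 0 were members. Sequences and positions are RefSeq's (GRCh38.p14), with genes from GENCODE 29.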

Additional observations from a re-analysis of the deposited data

Results flagged for a closer look

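In 6 of 76 groups of 4 libraries, one library lay far from the other 3 (Dixon's test at the 95% level), where about 1 in 20 groups is flagged by chance. ETBF replicate 4 was highest for miR-6511b-5p at 5.99 CPM, against 1.41 to 2.05 in the other ETBF libraries, and for miR-6511a-5p at 12.0 CPM, against 2.82 to 4.11. Divided by their factors, both names have the same counts, and without that library both log2 fold changes were -0.17. ETBF replicate 1 was lowest for miR-6842-3p at 1.504 CPM, against 2.83 to 3.05. ETBF replicate 4 was lowest for miR-3074-5p at 6.36 CPM, against 7.99 to 8.22. Control replicate 2 was lowest for miR-1291 at 5.28 CPM, against 5.89 to 5.97, and highest for miR-3607-3p at 9.33 CPM, against 1.99 to 2.54.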

How the results depend on the processing

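Of the 10 called miRNAs, 7 were called in every alternative that could test them (17 or 19), and all 10 kept their sign. Among the 7, miR-1296-5p had no sequence, so removing the GC trend could not change its value. MiR-1257 and miR-4425 are also among the 7. They became members mainly through the ETBF libraries, with 27 and 31 counts in the controls, so their kept calls partly follow from the choice of members. Both were left untested by the stricter filter and by thinning, so their stability was not tested there. Members that rose numbered 2 with the stricter filter, after thinning and with a summed count of at least 160, and members that fell numbered 10 with upper-quartile scaling. Without 1 library each, members that rose ranged from 4 to 5, members that fell from 6 to 11, and hairpins whose arm ratio passed from 0 to 1. With the replicate block, 4 rose, 7 fell (miR-2110 added) and 2 arm ratios passed. Deviations of same-numbered libraries from their group means had correlations of -0.0584 to 0.0608 over the tested names. Differently numbered libraries were not compared, so whether the numbers pair the libraries was not tested. Signs were followed for the 29 named miRNAs and the arm ratios, not for the other members. Among these, signs turned for uncalled miRNAs only: with the GC trend removed miR-1307-3p (0.17), miR-3615 (0.17) and miR-1307-5p (0.062). After thinning it turned for miR-6715b-3p (0.065). Leaving out 1 library turned miR-6511b-5p (range -0.17 to 0.58) and miR-6511a-5p (-0.17 to 0.69) without ETBF replicate 4, and miR-6511a-3p (-0.58 to 0.0050) without ETBF replicate 1. It turned miR-3688-3p (-0.53 to 0.35) without ETBF replicate 2 or control replicate 3 (-0.065). The arm ratio of miR-1306 was at -0.44 and -0.12 without ETBF replicates 1 and 2, and at -0.018 and -0.13 without control replicates 3 and 4, with a range up to 0.40. That of miR-1307 was at 0.072 without control replicate 1 (range -0.19 to 0.072). The cause was not tested. Precision was lowest for the 61 tested members under 10 CPM (median SE 0.31, against 0.13 at 10 to 100 CPM), and the default filter left 4 untested.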

Other observations

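MiR-338-5p, the miRNA opposite miR-3065 in the AATK gene, was looked at after its values were seen. It had 0 counts in all 4 ETBF libraries and 8, 6, 3 and 14 in the controls, too few for the default filter. The pooled control level of 1.37 CPM was 7.05-fold the limit of 3 counts over the ETBF libraries (0.194 CPM). The error of the control counts is not part of that value, so it is no lower bound. Without a filter, over 1496 names, miR-338-5p passed (edgeR adjusted p = 3.97e-05). MiR-3065-5p, from the other strand, was present in every library and did not pass.

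Both arms of miR-3607 were high in the same libraries. MiR-3607-5p had 3, 26, 21 and 2 counts with ETBF and 7, 21, 5 and 8 in controls, and miR-3607-3p had 11, 37, 47 and 7 and then 10, 53, 12 and 17. ETBF replicates 2 and 3 and control replicate 2 were the highest for both, and the pattern does not follow the groups.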
